A study of Mus musculus with 6 samples.

Results

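The transcripts of STAT factors and JAK kinases were followed in mouse T cells grown together with ID8, an ovarian cancer cell line of the mouse. Janus kinases (JAKs) are bound to the inner side of cytokine receptors. When a cytokine joins the receptor chains, the kinases phosphorylate the receptor and then the STAT proteins, which pair, enter the nucleus and switch on their target genes. In T cells this route carries the signals of interleukin-2, interleukin-4, interleukin-6, interleukin-12 and the interferons. Most of its regulation acts on the proteins by phosphorylation, which a transcript level does not show.

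The genes were taken by symbol from the deposited table, and 9 of its 54532 genes are described here, namely the 6 STAT genes Stat2, Stat3, Stat4, Stat5a, Stat5b and Stat6 and the 3 kinase genes Jak1, Jak2 and Jak3. In 3 libraries the ID8 partner cells had first been given 40 µM cisplatin (cisplatin), and in the other 3 they had been given only PBS (control). In both groups splenic T cells of C57BL/6 mice aged 6 to 8 weeks were isolated with a pan T-cell kit, were kept in medium with 10 ng/mL interleukin-2 and were activated for 72 h with beads against CD3 and CD28 before the co-culture. Interleukin-2 signals through Jak1, Jak3 and the STAT5 proteins, and the sources used here do not give the medium of the co-culture itself. The study describes its replicates as biological and its samples as independent, but the sources do not say whether the libraries of a group came from separate mice or from separate cultures, and the p-values measure the spread between these libraries.

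The values are FPKM (fragments per kilobase of gene), which allow the levels of different genes to be compared per length. Between libraries they carry a scaling by median ratios, as described under the processing. Each library held 30606569 to 32169496 reads on genes, rebuilt from the FPKM, and the 9 genes held between 1719 (Stat4) and 25388 (Jak1) of them per library. The libraries were not purely T cells. Summed FPKM of 25 T-cell identity genes ranged from 2026 to 2155 in control and from 3182 to 3254 in cisplatin libraries, while 25 ID8 tumour markers summed to between 2022 and 2107 in control and between 357 and 366 in cisplatin libraries. Of the tested markers, 24 of 25 T-cell genes, 10 of 10 B-cell genes, 9 of 11 myeloid genes and 2 of 5 natural killer cell genes were higher with cisplatin, and 20 of 21 ID8 markers were lower (limma, adjusted p under 0.05). Among all tested genes, 27.5% were higher and 29.0% lower. The summed B-cell markers went from a range of 1717 to 1806 FPKM in control to 3665 to 3736 FPKM in cisplatin libraries, the myeloid markers from 84.6 to 88.8 FPKM up to 163 to 186 FPKM, and the natural killer cell markers from 7.37 to 8.69 FPKM up to 13.6 to 14.4 FPKM. Most of the B-cell sum was Ighm, with means of 1433 FPKM in control and 3220 FPKM in cisplatin libraries. The median log2 fold change was 0.61 for the B-cell list and 0.59 for the T-cell list. With the T-cell genes held constant, as described below, 5 of the 10 B-cell genes were higher and 3 lower, with a median of 0.08. Of all tested genes, 5.44% were then higher and 63.1% lower. No marker of the 5 lists was at 0 in all libraries. The ID8 markers Igfbp5, Krt7, Tpm2 and Tagln and the natural killer cell marker Klrb1c were nearly absent. Their means were below the 0.5 FPKM needed for testing. In such bulk RNA, fewer cells of a type and less RNA per cell cannot be told apart, and the part of these shifts in the STAT and JAK values below was not tested.

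The 9 genes lie on 6 chromosomes of the mouse genome (mm10, GRCm38), and 3 of them are neighbours. Stat5b (chr11:100780731-100850724, minus strand), Stat5a (chr11:100859351-100885169, plus strand) and Stat3 (chr11:100885098-100939540, minus strand) follow one another, and the ends of Stat5a and Stat3 share 72 bases on opposite strands. Stat2 (chr10:128270559-128292849) and Stat6 (chr10:127642986-127660957) are both on the plus strand of chromosome 10. Stat4 is at chr1:51987148-52107189, Jak1 at chr4:101152367-101265282, Jak2 at chr19:29251828-29313080 and Jak3 at chr8:71676296-71690575. The coding sequences of Stat5a (2391 bases) and Stat5b (2358 bases) are 90.8% identical over 2291 aligned bases, and the longest run without a difference is 324 bases over exons 6 to 8 of both. The run is shown by its longest piece, exon 7, because a read from it cannot be placed in either gene by its letters. It reads the same at chr11:100874339-100874490 (Stat5a, plus strand) and at chr11:100798234-100798385 (Stat5b, minus strand).
Stat5a and Stat5b, exon 7: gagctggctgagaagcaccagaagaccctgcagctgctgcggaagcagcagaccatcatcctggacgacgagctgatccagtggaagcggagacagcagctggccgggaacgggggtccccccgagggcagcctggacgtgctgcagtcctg

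Of all 100-base windows in the annotated transcripts, 3.44% of those of Stat5a and 4.79% of those of Stat5b were also found in the other gene. Jak3 shared 5.51% of its windows with Insl3, a hormone gene that overlaps its 3′ end on the same strand and was itself listed at 23.1 FPKM in control and 20.2 FPKM in cisplatin libraries. Stat4 shared 18.0% with the processed transcript Gm28177, which was listed at 0.0526 and 0.0491 FPKM. For Stat2, Stat3, Stat6, Jak1 and Jak2 no such window was found elsewhere. The sources do not say how reads that match several genes were counted or whether strand was used, so the values of Stat5a, Stat5b, Jak3 and Stat4 carry this uncertainty. Without strand, overlaps on the opposite strand would add to it. By gene span these are Stat3 with Stat5a (72 bases), Stat6 with Nab2 (40 bases), Jak1 with Raver2 (4 bases) and Gm24468 (104 bases), and Stat4 with Gm3940 (432 bases).

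Promoter sequences (RefSeq, GRCm38.p6) were available for all 9 genes, with alternative start sites for Stat4, Stat5a and Stat5b. The 250 bases before each start site were searched on both strands for GAAA followed by any pair of bases and GAAA again (TTTC, a pair of bases and TTTC on the other strand), a short form of the interferon-stimulated response element that complexes with Stat2 bind, and for TTCNNNGAA, the core of the site that STAT dimers bind, which reads the same on both strands. The first was found in 2.98% of all 32851 promoters and the second in 7.02%. Among the STAT and JAK promoters the first was found before Stat2 and before the downstream start site of Stat4, and the second before none of them. Both sequences that hold it are shown with the matching letters in capitals, because Stat2 was the STAT gene with the largest fall and Stat4 was one of those that rose. The Stat2 sequence covers chr10:128270248-128270497 and the Stat4 sequence chr1:52007990-52008239, both on the plus strand.
Stat2 promoter: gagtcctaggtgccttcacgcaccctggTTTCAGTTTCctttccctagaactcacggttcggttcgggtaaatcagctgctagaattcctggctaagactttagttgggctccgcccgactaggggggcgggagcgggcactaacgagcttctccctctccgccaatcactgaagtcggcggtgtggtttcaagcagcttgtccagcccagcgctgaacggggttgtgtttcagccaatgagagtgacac
Stat4 downstream promoter: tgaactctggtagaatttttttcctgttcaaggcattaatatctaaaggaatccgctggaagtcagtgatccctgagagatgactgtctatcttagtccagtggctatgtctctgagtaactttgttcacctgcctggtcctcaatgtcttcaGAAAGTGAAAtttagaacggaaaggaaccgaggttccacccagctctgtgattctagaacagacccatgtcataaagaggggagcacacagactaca

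The match lies 222 bases before the start site in Stat2 and 97 bases before it in Stat4. A match of letters does not show that a factor binds there.

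The comparison asked whether the transcripts of these signalling proteins differed between T cells that had met cisplatin-pretreated ID8 cells and those that had met untreated ones. On the FPKM as deposited, Stat5a, Stat4, Stat5b and Jak2 were higher with cisplatin and Stat2, Jak3 and Stat3 lower (limma, adjusted p under 0.05), but Stat4, Stat5b and Jak2 changed sign when the T-cell genes were held constant, as described below. Stat6 and Jak1 did not pass the test. The changes were modest, from a fall of 18.8% for Stat2 to a rise of 53.4% for Stat5a. Of the 9 genes, 7 thus passed, against 56.5% of the 15874 genes tested. The 4 that rose stand against 27.5% of all tested genes that rose, and the 3 that fell against 29.0% that fell. None reached the fold change of 2 that the study required, against 16.9% of all tested genes with limma. With limma's unadjusted p under 0.05, and with voom on the rebuilt reads, the number of STAT and JAK genes at a fold of 2 was also 0. For 8 of the 9 genes, all but Stat6, the 3 cisplatin and the 3 control libraries did not overlap, against 64.2% of all tested genes. In 4 of them every cisplatin library was the higher, against 31.9% of all tested genes, and in 4, with Jak1 among them, the lower, against 32.3%.

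**Figure D1:**
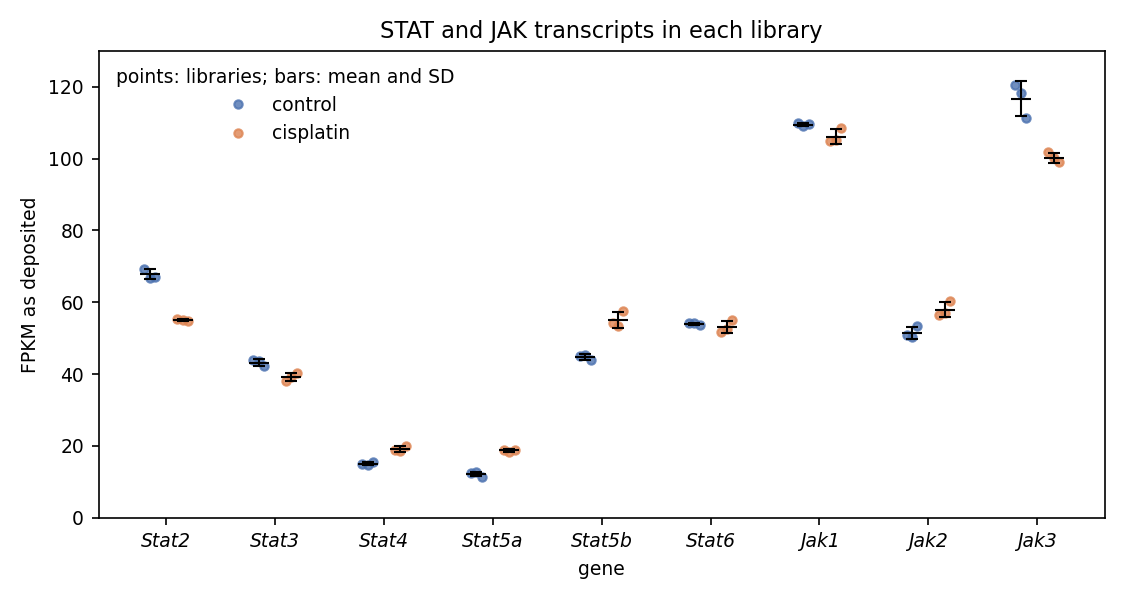
FPKM of each STAT and JAK gene (x axis) in the 3 control and 3 cisplatin libraries (points), with the mean and SD as bars. Stat5a sits between 11.5 and 12.7 FPKM in control and between 18.4 and 19.0 FPKM in cisplatin libraries, and the libraries overlap for Stat6 alone.

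The direction of several of these differences depended on how the libraries were put on one scale. Over all tested genes the median log2 fold change was 0.03 as deposited, 0.16 after quantile normalization, 0.10 with voom on the rebuilt reads and -0.50 when each library was shifted so that the T-cell identity genes had the same mean (T-cell scaling). T-cell scaling assumes that those genes did not change. Among all genes that passed limma, 51.4% were lower as deposited, 39.5% after quantile normalization, 44.7% with voom and 92.1% after T-cell scaling. After T-cell scaling, 8 of the 9 STAT and JAK genes were lower and none was higher, beside 63.1% of all tested genes that were lower and 5.44% that were higher under the same scaling. The exception was Stat5a, with a log2 fold change of 0.09 (limma, adjusted p = 0.23). With voom, Stat5a, Stat4, Stat5b and Jak2 were higher and Stat2 and Jak3 lower, beside 31.7% of all genes tested with voom that were higher and 25.6% that were lower, and Stat3 no longer passed. Relative to the median of all tested genes, the order of the extremes was the same over the scalings compared. Subtracting that median cancels any shift that all genes of a library share. T-cell scaling is such a shift, so it could not alter this order. Apart from the small constant added before the logarithm, scaling by median ratios and TPM (FPKM divided by their library sum) are such shifts too. The deposited FPKM already carried the median-ratio scaling, so repeating it changed almost nothing. Voom also divides each library by a single number, its read total, and has its own set of tested genes. Of the scalings compared, only quantile normalization moves the genes of a library by unlike amounts by design. Over 6 scalings Stat5a lay between 0.55 and 0.60 above that median on the log2 scale, Stat4 between 0.28 and 0.33 above and Stat5b between 0.18 and 0.28 above. On the same relative scale Stat2 ranged from -0.44 to -0.32 and Jak3 from -0.39 to -0.23.

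**Figure D2:**
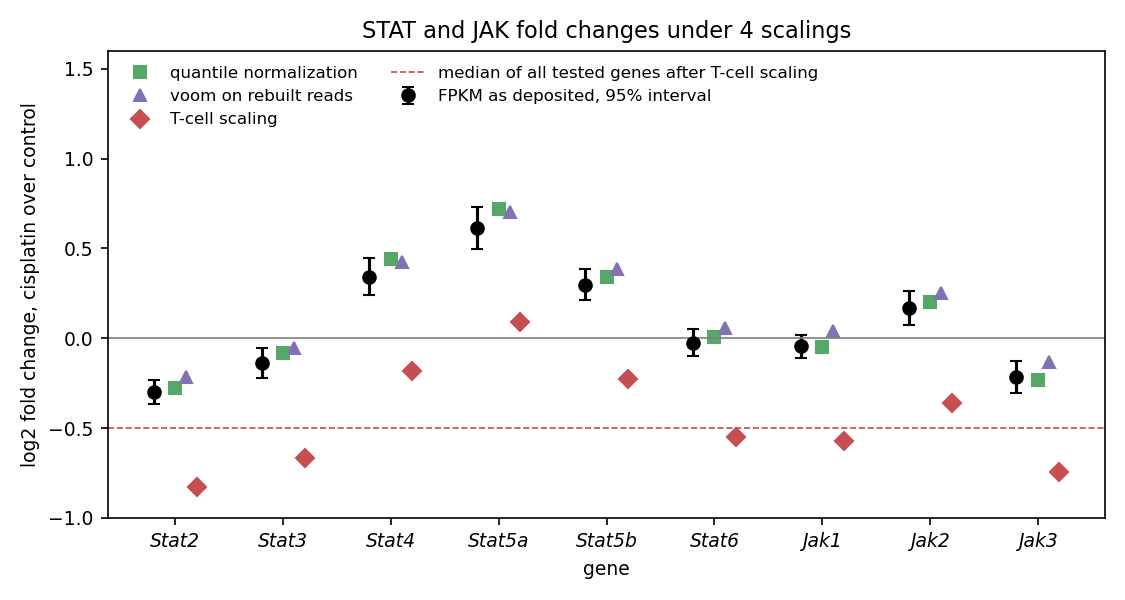
Log2 fold change, cisplatin over control, of each STAT and JAK gene on the FPKM as deposited (black, with the 95% interval from limma), after quantile normalization, with voom on the rebuilt reads and after T-cell scaling. The dashed line is the median of all tested genes after T-cell scaling, at -0.50, where Stat5a alone stays above 0.

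The 2 STAT5 genes encode closely related factors that carry the interleukin-2 and interleukin-7 signals. Stat5a had 19.0, 18.4 and 18.9 FPKM in the cisplatin libraries and 12.5, 12.7 and 11.5 FPKM in the control libraries. Every cisplatin library was above every control library. The means were 18.8 ± 0.315 and 12.2 ± 0.658 FPKM (SD, n = 3 each). This gave a log2 fold change of 0.61 (standard error 0.05, limma adjusted p = 6.0e-05) that became 0.09 after T-cell scaling. Stat5b had 54.1, 53.5 and 57.5 FPKM with cisplatin and 45.0, 45.2 and 43.8 FPKM in control. Its groups did not overlap either, and its means of 55.04 ± 2.17 and 44.7 ± 0.758 FPKM (SD, n = 3 each) gave a log2 fold change of 0.30 (standard error 0.04, limma adjusted p = 0.00053) that was -0.23 after T-cell scaling.

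Stat4, the factor through which interleukin-12 promotes the type 1 helper programme, rose from the second lowest level. It had 18.8, 18.6 and 20.1 FPKM in the cisplatin libraries against 15.04, 14.8 and 15.4 FPKM in the control libraries. The groups did not overlap. The means of 19.2 ± 0.799 and 15.1 ± 0.318 FPKM (SD, n = 3 each) gave a log2 fold change of 0.34 (standard error 0.04, limma adjusted p = 0.00057), which was -0.19 after T-cell scaling. Stat6, the interleukin-4 factor of the type 2 programme, had 51.8, 52.5 and 55.1 FPKM with cisplatin and 54.1, 54.2 and 53.7 FPKM in control. The highest cisplatin library exceeded all control libraries and the other two lay below them. The log2 fold change was -0.02 with a 95% interval from -0.10 to 0.05 (limma adjusted p = 0.56), and it was -0.55 after T-cell scaling (limma adjusted p = 9.6e-06).

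Stat2, which joins Irf9 in the complex that answers type I interferon, fell. It had 55.2, 55.004 and 54.7 FPKM in the cisplatin libraries and 69.3, 66.8 and 67.1 FPKM in the control libraries. The cisplatin libraries lay closely together and all below the control ones. With means of 54.97 ± 0.275 and 67.7 ± 1.39 FPKM (SD, n = 3 each), the log2 fold change was -0.30 (standard error 0.03, limma adjusted p = 0.00013) and -0.83 after T-cell scaling. Its partner Irf9 had 32.8 ± 0.602 FPKM with cisplatin and 28.0 ± 1.37 FPKM in control (SD, n = 3 each), with a log2 fold change of 0.23 (limma adjusted p = 0.0041) that was -0.30 after T-cell scaling. Stat3, the factor of the interleukin-6 family, had 38.0, 39.2 and 40.4 FPKM with cisplatin and 43.9, 43.6 and 42.2 FPKM in control. The groups did not overlap, but the nearest libraries were close. The means were 39.2 ± 1.17 and 43.2 ± 0.906 FPKM (SD, n = 3 each) and the log2 fold change -0.14 (standard error 0.03, limma adjusted p = 0.013). It was -0.08 after quantile normalization (limma adjusted p = 0.089), -0.06 with voom (adjusted p = 0.11) and -0.67 after T-cell scaling (limma adjusted p = 7.3e-06).

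Among the kinases, Jak3, which is found mainly in blood cells and works with the common gamma chain, fell. Its values were 102, 100.03 and 99.0 FPKM in the cisplatin libraries and 121, 118 and 111 FPKM in the control libraries. The groups did not overlap, and the control libraries were the more spread. The means of 100.3 ± 1.40 and 117 ± 4.83 FPKM (SD, n = 3 each) gave a log2 fold change of -0.22 (standard error 0.04, limma adjusted p = 0.0025) and of -0.74 after T-cell scaling. The common gamma chain Il2rg, named here after its values were seen, moved the other way, with 86.1 FPKM in cisplatin and 51.4 FPKM in control libraries on average and a log2 fold change of 0.74 (limma adjusted p = 8.3e-06).

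Jak2, the kinase of the interferon-gamma, interleukin-12 and many growth factor receptors, had 56.3, 57.1 and 60.3 FPKM with cisplatin and 50.8, 50.3 and 53.5 FPKM in control. All cisplatin libraries lay above all control libraries. The means of 57.9 ± 2.09 and 51.5 ± 1.69 FPKM (SD, n = 3 each) gave a log2 fold change of 0.17 (standard error 0.04, limma adjusted p = 0.011) that was -0.36 after T-cell scaling. Jak1, which serves most of these receptors, had 105, 105 and 108 FPKM with cisplatin and 109.8, 109 and 109.5 FPKM in control. The groups did not overlap but were separated by less than 1 FPKM at their nearest. The log2 fold change was -0.04 with a 95% interval from -0.11 to 0.02 (limma adjusted p = 0.20), and it was -0.57 after T-cell scaling (limma adjusted p = 4.3e-06).

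In control libraries Jak3 was highest at 117 FPKM, followed by Jak1 (109 FPKM), Stat2 (67.7 FPKM), Stat6 (54.0 FPKM), Jak2 (51.5 FPKM), Stat5b (44.7 FPKM), Stat3 (43.2 FPKM), Stat4 (15.1 FPKM) and Stat5a (12.2 FPKM). Of these neighbours, Stat5b and Stat3 overlapped and the others did not. In cisplatin libraries Jak1 was first at 106 FPKM and Jak3 second at 100.3 FPKM, without overlap. Jak2, Stat5b, Stat2 and Stat6 followed between 57.9 and 53.1 FPKM, and each of them overlapped the next. Stat3 stood apart at 39.2 FPKM, and Stat4 and Stat5a overlapped at 19.2 and 18.8 FPKM. The highest STAT mean was 5.54 times the lowest in control and 2.93 times the lowest in cisplatin libraries. Stat5a stood above 69.9% of the tested genes in control and above 81.3% in cisplatin libraries, and Jak1 above 97.9% and 97.8%.

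A ratio of 2 genes within a library does not depend on the scaling between libraries, and 7 ratios were compared. All 7 differed between the groups without overlap, each with a two-sided exact permutation p of 0.1, the smallest this test can give for 3 libraries against 3, and 0.1 after Benjamini-Hochberg adjustment over the 7. The ratios share genes and are not independent. How often the ratios of other gene pairs are apart was not tested, and 64.2% of all tested genes did not overlap singly. Stat3 and Stat5b, which are near neighbours on chromosome 11 and have opposing roles in interleukin-17-producing helper T cells, were about level in control libraries with Stat3/Stat5b ratios of 0.974, 0.965 and 0.962. In cisplatin libraries the ratio was 0.703, 0.734 and 0.702, a log2 difference of -0.44, the largest of the 7. The Jak2/Jak3 ratio was 0.578 ± 0.0282 with cisplatin and 0.443 ± 0.0330 in control (SD, n = 3 each), a log2 difference of 0.38. The Stat4/Stat6 ratio was 0.361 ± 0.00512 and 0.280 ± 0.00705 (SD, n = 3 each), a log2 difference of 0.37.

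Within the STAT5 pair, Stat5a made up the smaller part in both groups. The Stat5a/Stat5b ratio was 0.341 ± 0.0112 with cisplatin and 0.274 ± 0.0102 in control (SD, n = 3 each), a log2 difference of 0.32. The Stat2/Stat6 ratio went from 1.25 ± 0.0246 in control to 1.04 ± 0.0379 with cisplatin (SD, n = 3 each), a log2 difference of -0.28. The Jak2/Jak1 ratio was 0.545 ± 0.00953 and 0.471 ± 0.0149 (SD, n = 3 each), and the Jak1/Jak3 ratio passed from below 1 in all control libraries (0.911, 0.922 and 0.985) to above 1 in all cisplatin libraries (1.03, 1.05 and 1.09).

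**Figure D3:**
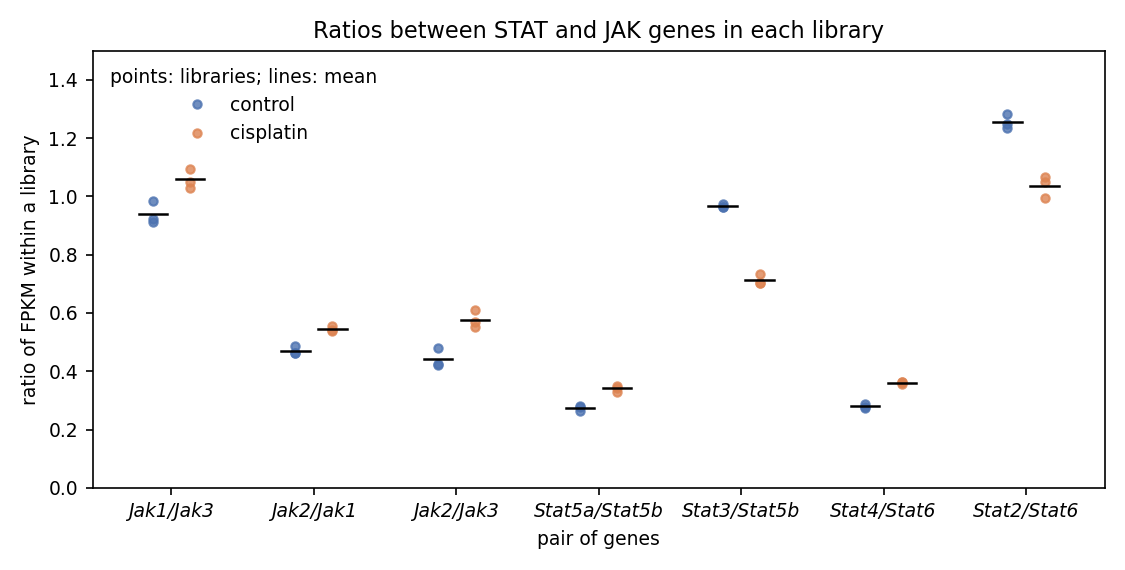
Ratio of the FPKM of 2 genes within each library (points) and its mean (lines) for the 7 pairs, control beside cisplatin. The groups are apart in all 7 pairs, by the most on the log2 scale for Stat3/Stat5b, with means of 0.967 in control and 0.713 with cisplatin. The share of other gene pairs that are apart was not tested.

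The genes whose values over the 6 libraries lay nearest to those of Stat5a, among the 8421 other genes of at least 5 FPKM, were Ubn1, S1pr4 and Clcn7, with root mean square differences of centred log2 values of 0.023, 0.026 and 0.027. For Stat2 they were Nbr1, Paics and Copg1, at 0.015, 0.017 and 0.020. Many genes had a similar course, since 571 lay within 0.1 of Stat5a and 1107 within 0.1 of Stat2.

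Lists of the proteins around the STAT and JAK genes were described by the same fit. Over the 8 lists, 45 of the 111 tested genes were higher and 45 lower (limma, adjusted p under 0.05), beside 27.5% and 29.0% of all tested genes, and their median log2 fold change was 0.09 beside 0.03 for all genes. After T-cell scaling, 11 were higher and 77 lower, beside 5.44% and 63.1% of all tested genes. Of the 26 cytokine ligands, 10 were tested, of which 4 were higher and 2 lower, with a median of 0.24. The largest changes among ligands of at least 5 FPKM were in the interleukin-6 family, with Osm at 7.77 ± 0.710 FPKM with cisplatin and 4.12 ± 0.414 FPKM in control and Lif at 3.79 ± 0.617 and 10.8 ± 0.795 FPKM (SD, n = 3 each). Their log2 fold changes were 0.90 and -1.49 (limma, adjusted p = 0.00028 and 6.8e-05).

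Of the 27 tested receptor chains, 18 were higher and 6 lower as deposited, with a median of 0.29 that was -0.24 after T-cell scaling. Csf2rb, the shared chain of the receptors for GM-CSF, interleukin-3 and interleukin-5, which works through Jak2, rose by 1.03 on the log2 scale (limma adjusted p = 3.1e-06). Il13ra1, a receptor chain for interleukin-13 found on many cells outside the lymphoid lineage, went from 22.9 ± 0.860 to 3.75 ± 0.133 FPKM (SD, n = 3 each), with a log2 fold change of -2.58 (limma adjusted p = 1.5e-07). Of the 20 negative regulators, 9 were higher and 6 lower, with a median of 0.16. Ptpn6, a phosphatase that removes phosphate from JAKs and receptors, rose from 43.8 ± 0.290 to 89.9 ± 2.67 FPKM (SD, n = 3 each), and Socs5, a feedback inhibitor, had a log2 fold change of -0.77 (limma adjusted p = 0.00011). B cells and myeloid cells also express Ptpn6 and Csf2rb, which moved together with the summed markers of those cells given above, and the part of the markers in these values was not tested. Both genes still rose after T-cell scaling, by 0.51 each on the log2 scale. In the same scaling the myeloid list had 7 of 11 genes higher and 2 lower, with a median of 0.60. The B-cell list had 5 of 10 higher and 3 lower, with a median of 0.08. Under that scaling 5 receptor chains were higher and 17 lower, 1 negative regulator higher and 14 lower, and 1 ligand higher and 4 lower. Of all tested genes, 5.44% were higher and 63.1% lower under the same scaling.

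Target genes were listed by the STAT they are known for. Of the 18 tested targets of Stat2 and its complex, 16 were lower and 1 higher, with a median of -0.99 beside 0.03 for all genes. Oasl2, an antiviral gene, went from 79.7 ± 2.08 to 11.0 ± 0.574 FPKM (SD, n = 3 each), with a log2 fold change of -2.84 (limma adjusted p = 1.1e-07), several times the change of Stat2 itself. After T-cell scaling all 18 were lower, beside 63.1% of all tested genes. The summed FPKM of the list as deposited ranged from 946 to 988 in control and from 432 to 450 in cisplatin libraries. The ID8 markers, which fell in the same libraries, are given above, and their part in these values was not tested. The 1 higher gene as deposited was Irf9. Mx1, another antiviral gene, had 10.4 FPKM with cisplatin and 9.54 FPKM in control and did not pass. Of the 14 tested Stat3 targets, 7 were lower and 4 higher as deposited, with a median of -0.21. With voom the list had 7 higher and 7 lower of 15 tested genes, and after T-cell scaling 1 higher and 11 lower. Vegfa, which hypoxia also induces and many tumour cells make, had a log2 fold change of -3.31, and Batf, a factor of activated lymphocytes, of 0.97 (limma, adjusted p = 6.3e-08 and 1.4e-05).

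Of the 11 STAT5 targets, 5 were higher and 4 lower, with a median of 0.11. Foxp3, the factor of regulatory T cells, had 6.62 ± 0.147 FPKM with cisplatin and 2.64 ± 0.235 FPKM in control (SD, n = 3 each), with a log2 fold change of 1.30 (limma adjusted p = 1.8e-05), and Bcl2l1, a survival gene, one of -0.49 (limma adjusted p = 0.00081). Of the 6 tested Stat4 targets, 3 were higher and 2 lower, with Tbx21, the master factor of type 1 helper cells, at a log2 fold change of 0.59 and Gadd45g at -1.03 (limma, adjusted p = 0.00052 and 1.8e-05). Of the 5 tested Stat6 targets, 1 was higher and 2 lower, with Ccl22 at 0.998 and Arg1 at -1.03 on the log2 scale (limma, adjusted p = 7.4e-06 and 0.00013). Tbx21 had a log2 fold change of 0.06 after T-cell scaling and Irf9 and Mx1 changed sign, and the other genes named from the target lists kept their direction there. The medians of the STAT5 and Stat4 target lists changed sign after T-cell scaling, to -0.42 and -0.115, and that of the Stat6 target list was 0.23 with voom, where 7 genes were tested, and -0.64 as deposited. The value of -0.64 was that of Ccl17, which had 4 to 30 reads per library and did not pass (limma adjusted p = 0.39). The summed B-cell and myeloid markers given above rose in the same libraries, and their part in the values of these lists was not tested.

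**Figure D4:**
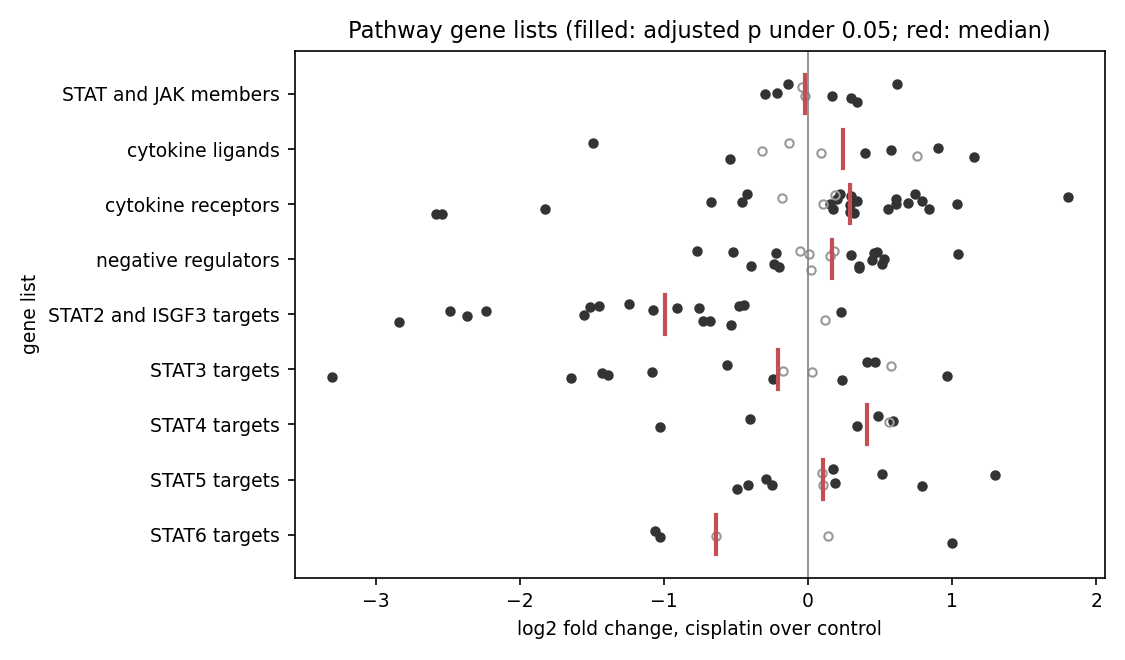
Log2 fold change, cisplatin over control, of the 9 STAT and JAK genes and of the tested genes of the 8 lists (points; filled where the limma adjusted p is under 0.05, with the median in red). The STAT and JAK genes stay between -0.30 and 0.61, while the targets of Stat2 and its complex reach -2.84.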

How the data were processed

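T-cell libraries were compared between co-cultures with cisplatin-pretreated and PBS-treated ID8 cells. The deposited values are FPKM that the authors made from counts per gene. The submitters' processing notes name fastp, HISAT2 2.0.5, featureCounts 1.5.0-p3 and mm10, whereas the study's methods name LifeScope for alignment and counting. Strand and multi-mapping settings are not given in the sources used here. The table held 0 columns of other samples, and its gene coordinates were those of GENCODE M21 (GRCm38) for 53499 of 54409 genes found in both.

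FPKM times gene length was a whole multiple of 1 step in each library (100% of values above 0, within 0.1 read), from which reads were rebuilt. The median ratio to the mean library was 1.01 in each of the 6 libraries, so the deposited FPKM already carry a median-of-ratios scaling. Values were tested as log2(FPKM + 0.1) in limma 3.58.1 (R 4.3.3; lmFit, eBayes with trend) over the 15874 genes whose mean reached 0.5 FPKM, with Benjamini-Hochberg adjustment over all of them. Fold changes on this scale understate those of low genes. FPKM cannot enter a count test directly, so DESeq2, which the authors used on counts, was replaced by limma. Ratios of genes were compared with the exact permutation test. The limma step was tested on simulated data. Replicates were not identical (chi-square per degree of freedom 5.11 to 5.99 between rebuilt reads). Intervals and read numbers cover counting error and library spread only.

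The members and the lists (211 symbols, all in the table) were chosen with earlier results of these data known. From each pathway list the largest passing rise and fall among genes of at least 5 FPKM without overlap are named. Il2rg and Mx1 were named after their values were seen. Other members of the STAT and JAK families are not reported here. Alternatives were other pseudocounts (1 and 0.01), filters, scalings, no variance trend, protein-coding genes alone, voom on rebuilt reads (at least 10 reads in 3 libraries), the replicate number as a block and leaving out each library. The computations used scipy 1.17.1 and pandas 2.3.3 (python 3.11.15), with numpy 2.4.6, and matplotlib 3.10.9 for plots.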

Additional observations from a re-analysis of the deposited data

How the results depend on the processing

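Over 18 alternatives the counts of 4 higher and 3 lower STAT and JAK genes stayed within 1.5 times, except when the T-cell identity genes were held constant (T-cell scaling), which gave 0 higher and 8 lower, and for the 8 lists 11 higher and 77 lower in place of 45 and 45, beside 5.44% of all tested genes higher and 63.1% lower under that scaling. By construction T-cell scaling shifts all genes of a library alike. It gave the opposite sign for Stat4 (-0.19), Stat5b (-0.23), Jak2 (-0.36) and Irf9 (-0.30) on the log2 scale. Stat6, which passed no test as deposited, was at 0.0089 after quantile normalization and 0.0592 with voom, and Jak1 at 0.0389 with voom. Both passed as lower after T-cell scaling (-0.55 and -0.57). Stat3 missed the threshold after quantile normalization and with voom. The cause was not tested. Leaving out any 1 library left 4 higher and 3 lower genes. No ratio changed sign in any of its 9 alternatives. For leaving out a library this was fixed by the lack of overlap between the groups. With the replicate number as a block, the mean difference of a ratio is the same by construction. The replicate numbers gave no sign of pairing the libraries (correlations of deviations 0.023, -0.063 and -0.021 for equal numbers, and not every library correlated best with its own number). The check cannot exclude pairing, since the deviations are from means of 3 libraries and the sources do not say what equal numbers share. The fit with the replicate number as a block again gave 4 higher and 3 lower. With 3 libraries a group, differences of the size of the intervals for Stat6 and Jak1 could not be resolved.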
